A study of Schizosaccharomyces pombe
Saccharomyces cerevisiae with 8 samples.

Results

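Small nucleolar RNAs (snoRNAs) were examined in budding yeast, Saccharomyces cerevisiae, after auxin was given to cells whose Mediator subunits Med14 and Med17 carry degron tags. The members were the features whose deposited biotype is snoRNA and whose raw count averaged at least 10 over the 4 libraries of a table. Of 6518 features in the total RNA table, 77 carried that biotype and 72 passed the minimum. The other 5, snR58, snR59, snR60, snR72 and snR73, are box C/D snoRNAs with mean counts of 6.5 or lower, and snR74 stood just inside the minimum with a mean of 10. All 8 snoRNAs listed in the newly synthesized RNA table passed. By their deposited descriptions the 72 members are 40 box C/D snoRNAs, 29 box H/ACA snoRNAs, the 2 copies of U3 and NME1. NME1 is the RNA of RNase MRP, a ribonuclease that cuts precursor ribosomal RNA, and is the only member whose description does not name a snoRNA.

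All cells were of mating type alpha, expressed the rice auxin receptor OsTIR1 from the GPD1 promoter, and carried IAA7 degron tags on Med14 and Med17 (strain OsTIR1 MED14-IAA7 MED17-IAA7, deleted for several nutritional marker genes). Auxin directs proteins with this tag to degradation, and no protein level was measured here. Auxin was given at 500 µM for 30 min, or DMSO as its carrier, before labelling with 4-thiouracil (5 mM, 6 min). Fission yeast cells were added at 3 parts to 1 before RNA extraction. Total RNA and purified thiouracil-labelled RNA were sequenced, which gave 4 groups of 2 libraries, labelled as biological replicates 1 and 2. The tagged strain was given DMSO as the control, so every group carries the tags, and no group without them was analysed here. Mediator is a coactivator that connects gene-specific activators with RNA polymerase II, and the series asks how far its architectural subunits are needed for global transcription.

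snoRNAs act in the nucleolus as RNA-protein particles. Box C/D snoRNAs bind Nop1, Nop56, Nop58 and Snu13 and direct methylation of ribosomal RNA, whereas box H/ACA snoRNAs bind Cbf5, Gar1, Nhp2 and Nop10 and direct conversion of uridine to pseudouridine. A few, among them U3, U14 (snR128), snR30 and snR10, act in the cutting of precursor ribosomal RNA. In yeast most snoRNAs are made by RNA polymerase II from promoters of their own. Some lie in introns of protein genes, some are cut from transcripts that hold several snoRNAs, and snR52 is made by RNA polymerase III. Mature snoRNAs are known as stable RNAs, so their total level includes molecules made before a treatment.

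Listed counts summed to between 10862028 and 17491251 per total RNA library. They summed to between 4817883 and 15744423 per library over the 2822 features of the newly synthesized RNA table, which holds only the features with the authors' lowest p-values, so these are not full depths. Members took 5.52% and 5.12% of total RNA counts in DMSO and 6.71% and 6.86% in auxin. The 5 most abundant, snR37, snR86, snR30, snR17a and snR84, held between 84.6% and 88.0% of member counts in each library. Levels are given as normalized counts, which are raw counts divided by the authors' size factor for each library. Log2 fold changes compare auxin with DMSO and come from edgeR fits that used those factors. A call means a Benjamini-Hochberg adjusted p below 0.05 over all tested features. Positions were taken from the tables, which use build sacCer3 and give no strand.

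In total RNA, scaled by the authors' size factors, most snoRNAs fell after auxin, and the median fall was smaller than that of all tested features. Of the 72 members, 60 were called lower, 1 higher and 11 not called by edgeR's quasi-likelihood test, while 92.3% of the 5589 tested features were called lower and 0.769% higher. The median member stood at 56.1% of its DMSO level, a log2 fold change of -0.83, against 27.7% and -1.85 for all tested features. Relative to each feature's DMSO mean, the median member stood at 95.5% and 104% in the DMSO libraries and at 44.6% and 62.0% in the auxin libraries. For all tested features the same medians were 95.4% and 105% in DMSO and 25.6% and 29.9% in auxin. Both auxin libraries were therefore lower than both DMSO libraries in each summary, and replicate 2 was the higher of the auxin pair. Members ran from -3.31 (snR10) to 1.32 (snR52), and the 2 DMSO and 2 auxin values did not overlap for 64 of them, against 95.7% of all tested features. Calls of 18 members were lost without DMSO replicate 2, 14 without auxin replicate 1, 7 without DMSO replicate 1 and 2 without auxin replicate 2. RNA came from whole cultures, in which fewer cells and less RNA per cell cannot be told apart.

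The direction of these changes rests on the scaling. TMM, which assumes that most features do not change, moved the median of all tested features from -1.85 to -0.09, and DESeq2's size factors moved it to -0.02. With TMM 8 members were called lower and 41 higher, beside 32.3% and 29.6% of all tested features. With DESeq2's factors 8 were lower and 43 higher, beside 27.6% and 32.4%. Rescaling a library shifts all its features alike, so it could hardly move the distance between members and other RNAs. The median member lay 1.02 above the median of all tested features with the authors' factors and 1.04 above it with either alternative. Levels also differ between members and most features. The tested features were divided into 10 classes by mean normalized count over all 4 libraries, so the auxin values enter the classes. The members' median lay above that of all features in 9 classes, some of which held few members, down to 1. The gap was smallest at the ends, 0.12 in the highest class (13 members) and 0.29 in the lowest (20 members), and largest in the fifth class from the bottom, 1.64 (6 members at -0.49 against -2.13). In the third class from the bottom the 4 members had the lower median, by -0.21. Taken over all members, the median distance from the median of their own class was 0.51.

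The change differed between short and long snoRNAs. The 35 members shorter than 150 bases, all box C/D snoRNAs, had a median of -1.74, close to that of all tested features, and 31 were called lower, 1 higher and 3 not called (7 lower and 7 higher with TMM). The 37 of 150 bases or more had a median of -0.58, with 29 called lower, 8 not called and 0 higher (1 lower and 34 higher with TMM). The short members stood at a median of 22.9% and 36.3% of their DMSO mean in the auxin libraries, and the long ones at 59.5% and 72.9%. The difference between the medians of the 2 length groups was -1.17. It was -1.19 with either TMM or DESeq2's factors, which shift all members about alike and so could hardly change it. Of the short members, 28 were called lower with a log2 fold change of -1 or below, against 5 of the long ones. The upper quartile of all tested features was -1.28, so most of them also lay below -1, and 92.3% were called lower (32.3% with TMM).

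Length, level and box class go together among snoRNAs. The median in DMSO was 868 normalized counts per kb for short members and 10677 for long ones. These counts do not separate mature snoRNAs from their precursors, and how well short RNAs were recovered in the libraries was not tested. Spearman's rho over the 72 members, which share their libraries, was 0.55 between length and log2 fold change, 0.65 between mean count and log2 fold change, and 0.83 between length and mean count. Within classes it was 0.07 for length and log2 fold change over the 40 box C/D members, -0.24 over the 35 of these under 150 bases, and 0.31 over the 29 H/ACA members. For mean count and log2 fold change it was 0.34, 0.12 and 0.61 in the same order. In the range of at least 100 and under 1000 mean counts, the 13 short members had a median of -1.74 and the 13 long ones a median of -0.72. Levels still differed there, with median mean counts of 125 and 435. The 3 long members with fewer than 100 counts, snR80, snR85 and snR161, had a median of -0.69. Among other features shorter than 150 bases that are not transfer RNAs, 17 in all, the median was -1.69. All short members are box C/D, so below 150 bases length and box class cannot be told apart.

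**Figure D1:**
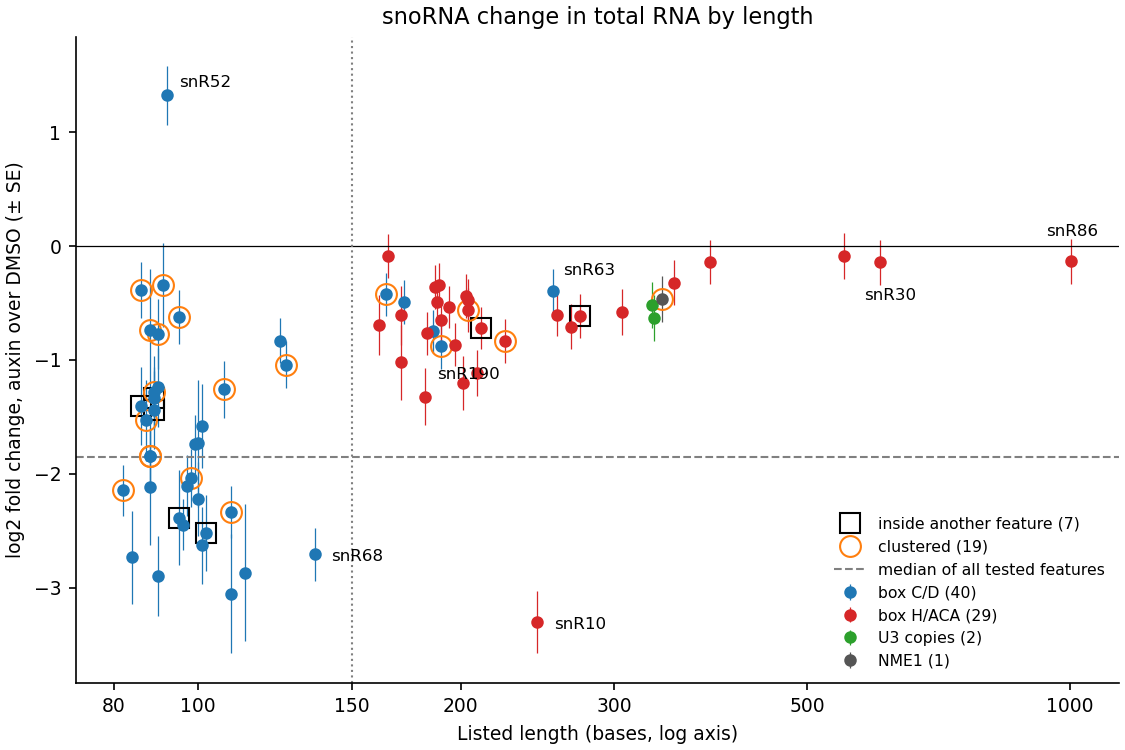
Log2 fold change of auxin over DMSO in total RNA (vertical axis, authors' size factors, with standard error) against listed length in bases (horizontal log axis) for the 72 members, coloured by class, with squares for those inside another feature and rings for clustered ones. Short members spread around the dashed median of all tested features, -1.85, while all long members except snR10 lie above it.

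The 2 box classes differed over all members, by -0.95 between their medians, but not in the same direction among members of at least 150 bases, the only length group that holds both. With a mean of at least 100 counts the class difference was -0.39. Box C/D members had a median of -1.56, with 36 of 40 called lower and 1 higher (7 and 12 with TMM). Box H/ACA members had a median of -0.61, with 21 of 29 called lower and 0 higher (1 and 26 with TMM). All tested features were called lower in 92.3% and higher in 0.769% of cases (32.3% and 29.6% with TMM). All H/ACA members are at least 161 bases long. The 5 box C/D members of at least 150 bases, snR4, snR45, snR63, snR70 and snR190, were all called lower, by 0.40 to 0.88 on the log2 scale, with a median of -0.49. The calls of snR45, snR63 and snR70 were lost without DMSO replicate 2 (-0.30, -0.12 and -0.33), those of snR63 and snR70 also without auxin replicate 1 (-0.25 and -0.37), and that of snR70 without DMSO replicate 1 (-0.51). The 29 H/ACA members therefore had a median 0.12 lower than these 5, the opposite order to that of the classes as a whole. Guides of large-subunit ribosomal RNA and of small-subunit ribosomal RNA had medians of -1.66 (22 members) and -1.62 (12) within box C/D, and of -0.58 (18) and -0.76 (6) within H/ACA, where only members with targets in 1 subunit were counted.

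snR10 (chromosome VII 345986 to 346230), a box H/ACA RNA needed for efficient early cuts in precursor ribosomal RNA and a guide for position U2923 of the large subunit, showed the largest fall of the 72. It had 236 and 251 normalized counts in the DMSO libraries and 23.8 and 25.2 in the auxin libraries. Replicates lay close together and the groups far apart, 9.96-fold (log2 fold change -3.31, edgeR quasi-likelihood adjusted p = 2.43e-32, SE 0.273). The next H/ACA member in order was snR36 at -1.32. A listed open reading frame, YGL088W, overlaps snR10 and held 4 and 2 raw counts in DMSO and 0 in either auxin library. snR10 was called lower with TMM as well, at -1.55.

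The other RNAs of ribosomal RNA cutting had smaller log2 fold changes, and all of them turned positive with TMM. snR17a (chromosome XV 780107 to 780596), the major U3 copy, had 144957 and 136847 normalized counts in DMSO and 82580 and 99353 in auxin. Both auxin values were lower, at a log2 fold change of -0.63 (edgeR adjusted p = 1.67e-03, SE 0.198), and without auxin replicate 1 the call was lost (-0.50, edgeR adjusted p = 0.121). snR17b (chromosome XVI 281056 to 281517), the minor U3 copy, had 27690 and 26524 in DMSO and 17462 and 20418 in auxin (log2 fold change -0.52, edgeR adjusted p = 0.0116, SE 0.202). Its call was lost without DMSO replicate 1, DMSO replicate 2 or auxin replicate 1, with values from -0.55 to -0.41. The U3 genes contain introns, so the stretch given by the coordinates is longer than the listed RNAs of 333 and 332 bases.

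U14, listed as snR128 (chromosome X 139566 to 139691), which is required for small-subunit ribosomal RNA, had 279 and 376 normalized counts in DMSO and 127 and 188 in auxin. Its groups did not overlap, and it fell by 1.04 on the log2 scale (edgeR adjusted p = 7.44e-07, SE 0.208). NME1 (chromosome XIV 585587 to 585926) had 10532 and 10701 in DMSO and 7529 and 7840 in auxin. All 4 values kept their groups apart at a log2 fold change of -0.47 (edgeR adjusted p = 0.0218), but the call was lost when any of the 4 libraries was left out. snR30 (chromosome XII 198784 to 199389), an H/ACA RNA essential for small-subunit ribosomal RNA, had 175417 and 193765 in DMSO and 153355 and 180756 in auxin. These groups overlap, and snR30 was not called (log2 fold change -0.14, edgeR adjusted p = 0.475, SE 0.196).

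Most of the H/ACA members of at least 300 bases were likewise not called. snR37 (chromosome X 228094 to 228479), a guide for U2944 of the large subunit with the highest level per kb of all members, had 197309 and 199070 normalized counts in DMSO and 156427 and 203140 in auxin. The auxin libraries lay on either side of both DMSO libraries, and the log2 fold change of -0.14 was not called. snR86 (191117 and 200872 in DMSO, 177087 and 180136 in auxin) and snR84 (44094 and 42286 in DMSO, 39797 and 41658 in auxin) had log2 fold changes of -0.13 and -0.08 and were not called either. Their DMSO values did not overlap their auxin values, by a small margin. Of the 6 H/ACA members of at least 300 bases, snR83 was called lower (-0.58; not called without DMSO replicate 2, at -0.45, or auxin replicate 1, at -0.42) and snR30, snR37, snR42, snR84 and snR86 were not, with a median of -0.14. The other members not called were snR9, snR49 and snR189 among H/ACA and snR53, snR66 and snR74 among box C/D, at -0.09 to -0.74. With TMM 10 of these 11 were called higher and only snR74 was not.

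Short box C/D methylation guides formed the other end of the range. snR68 (chromosome IX 97111 to 97246), a guide for A2640 of the large subunit, had 362 and 359.9 normalized counts in DMSO and 64.6 and 46.2 in auxin, at a log2 fold change of -2.71 (edgeR adjusted p = 7.69e-30, SE 0.234). snR39B (chromosome VII 366374 to 366469), a guide for G805, had 381 and 391 in DMSO and 67.5 and 73.9 in auxin (-2.45, edgeR adjusted p = 1.38e-26, SE 0.225). The libraries of each pair were close and the groups well apart in both cases. snR71, a guide for A2946, had 80.5 and 87.9 in DMSO and 12.4 and 10.1 in auxin, at -2.90. snR87, a guide for A436 of the small subunit (27.4 and 34.3 against 2.85 and 4.20), snR48 (20.1 and 20.6 against 2.85 and 2.52), snR79 (46.6 and 56.3 against 5.70 and 9.23) and snR64 (72.2 and 103 against 17.1 and 10.9) had log2 fold changes between -3.05 and -2.63. The auxin values of snR87 and snR48 rest on few reads, with standard errors of 0.523 and 0.603, and 7 members in all had fewer than 10 raw counts on average in auxin. The 5 members with the lowest DMSO level, 148 to 283 normalized counts per kb, were snR74, snR65, snR48, snR56 and snR87, of which snR56 and snR65 were called lower at -2.12 and -1.73. snR56 had 32.0 and 12.4 normalized counts in DMSO, and its call was lost without DMSO replicate 1 (-1.20, edgeR adjusted p = 0.135) while its value was -3.55 without auxin replicate 2. The call of snR65 was lost with DESeq2's test. snR13 (chromosome IV 1402919 to 1403042), a longer box C/D guide of 124 bases, had 316 and 554 in DMSO and 259 and 226 in auxin. Its DMSO libraries differed more from each other than the lower of them did from auxin, and its call (-0.83) was lost without DMSO replicate 2 (-0.39).

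snR52 (chromosome V 431129 to 431220) was the only member called higher. This box C/D RNA guides methylation of U2921 of the large subunit and A420 of the small subunit, and RNA polymerase III transcribes it. It had 59.4 and 54.9 normalized counts in DMSO and 124 and 164 in auxin. Both auxin libraries exceeded both DMSO libraries, at a log2 fold change of 1.32 (edgeR quasi-likelihood adjusted p = 3.35e-07, SE 0.257), and snR52 was called higher under every alternative run in which it was tested. Within its length group it stood apart, as the other 34 short members had log2 fold changes between -3.05 and -0.34.

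**Figure D2:**
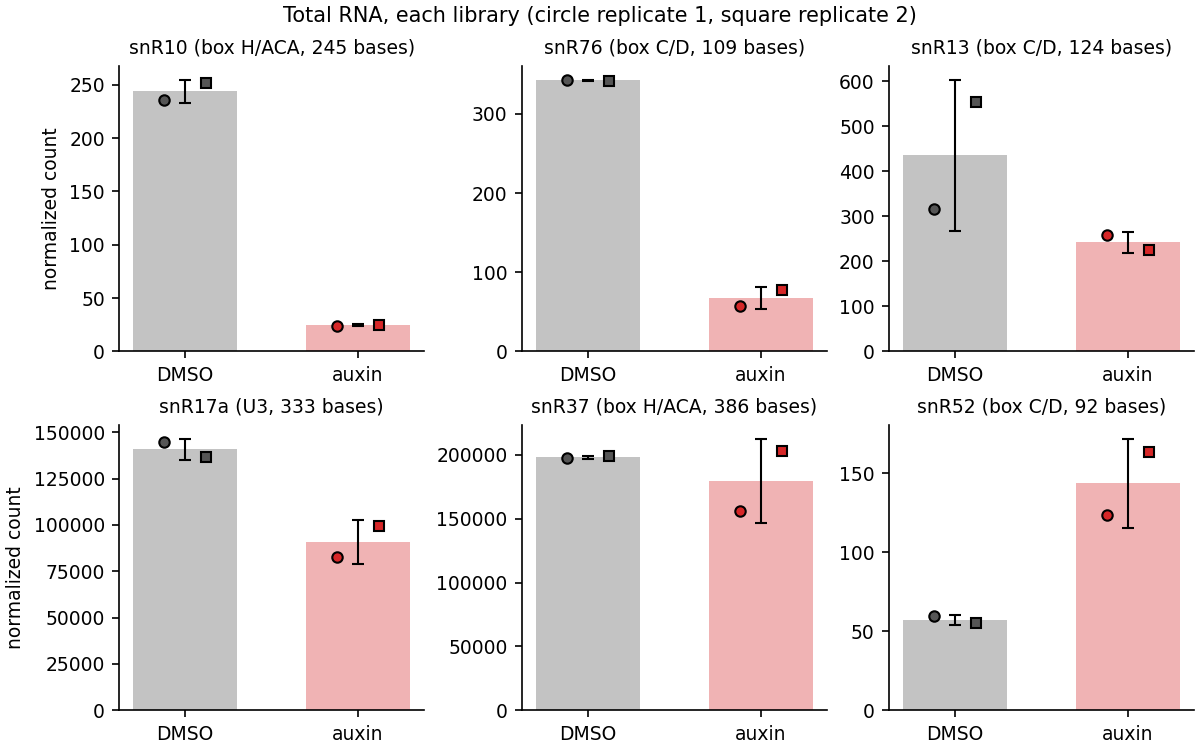
Normalized counts in total RNA (authors' size factors) for 6 members (vertical axes from 0; circle for replicate 1, square for replicate 2, bar and whisker for mean and SD, n = 2). snR10 and snR76 drop in both auxin libraries, snR17a drops less, the snR13 pair in DMSO is wide, snR37 overlaps between groups, and snR52 goes from 59.4 and 54.9 to 124 and 164.

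Several snoRNAs lie inside a protein gene, and these were compared with their hosts. By start and end positions 8 snoRNAs lay wholly inside another listed feature and 7 of them were members. All 7 were called lower, with a median of -1.40 (1 lower and 2 higher with TMM), against 53 called lower and 1 higher of the 65 members standing alone (7 and 39 with TMM), with a median of -0.77. This difference of -0.63 did not hold within matched members. Among box C/D members the 5 inside another gene had a median of -1.44, which was 0.14 higher than that of the 35 standing alone, and among members under 150 bases the median was 0.35 higher. The 2 H/ACA members inside a gene, snR44 and snR191, had a median of -0.67 against -0.58 for 27 standing alone. Calls in all these groups stand beside 92.3% lower and 0.769% higher of all tested features (32.3% and 29.6% with TMM).

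Against their own hosts, the nested box C/D snoRNAs fell where most host messenger RNAs were not called. snR18 (chromosome I 142367 to 142468) had 86.9 and 93.4 normalized counts in DMSO and 13.3 and 17.6 in auxin, a fall of 2.52 on the log2 scale (SE 0.330). Its host EFB1 (YAL003W), a translation elongation factor, had 15882 and 19841 in DMSO and 13032 and 15425 in auxin, a difference of -0.33 that was not called (edgeR adjusted p = 0.110). The snoRNA pair was separated widely between groups while the host pair was nearly touching. snR24 (chromosome XIII 499984 to 500072) had 37.5 and 72.8 in DMSO and 18.1 and 21.0 in auxin, at -1.44. The messenger RNA of its host ASC1 (YMR116C), a ribosome-bound protein, had 42033 and 49902 in DMSO and 40817 and 49580 in auxin, at -0.02, with overlapping groups.

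The same order held for snR39 (chromosome VII 365163 to 365251) in RPL7A (YGL076C), a ribosomal protein gene. snR39 had 116 and 114 in DMSO and 49.4 and 42.0 in auxin, at -1.33, while RPL7A had 5238 and 6218 in DMSO and 5252 and 6493 in auxin, at 0.04 and not called. snR54 in IMD4 (YML056C, IMP dehydrogenase) stood at -1.40 beside a host at -0.23 that was not called. snR38 in TEF4 (YKL081W, a translation elongation factor) stood at -2.39 beside a host that was itself called lower at -0.70. snR44, the H/ACA RNA in RPS22B (YLR367W), had 879.7 and 967 in DMSO and 522 and 598 in auxin, at -0.72, and its host stood at -0.23 and was not called. Each of these 6 snoRNAs thus had a lower log2 fold change than its host, with snoRNA minus host between -2.19 and -0.49, though this difference was not itself tested. The 6 hosts had far higher counts than their snoRNAs, and the pairs were not matched for level. Over all tested features the median was -0.51 in the highest of the 10 level classes and -1.94 in the lowest.

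snR191 in NOG2 (YNR053C, a GTPase of large-subunit assembly; snoRNA at chromosome XIV 721938 to 722211) went the other way. snR191 had 4137 and 4457 normalized counts in DMSO and 2591 and 3015 in auxin, a fall of 0.62 on the log2 scale, whose call was lost without DMSO replicate 2 (-0.56, edgeR adjusted p = 0.0760). NOG2 had 3981 and 4474 in DMSO and 1182 and 1275 in auxin, a fall of 1.78. The count of snR191 was 104% and 99.6% of that of its host in the DMSO libraries and 219% and 236% in the auxin libraries. For the other 6 pairs this share was between 0.0892% and 7.80% in DMSO and lower in both auxin libraries than in both DMSO libraries. The eighth nested snoRNA, snR59 in RPL7B (YPL198W), was below the count minimum. How reads that match both an intron and its gene were counted is not given in the sources used here. In newly synthesized RNA all 7 hosts were listed and called lower, between -3.09 and -2.36, while none of the 7 nested members was listed.

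**Figure D3:**
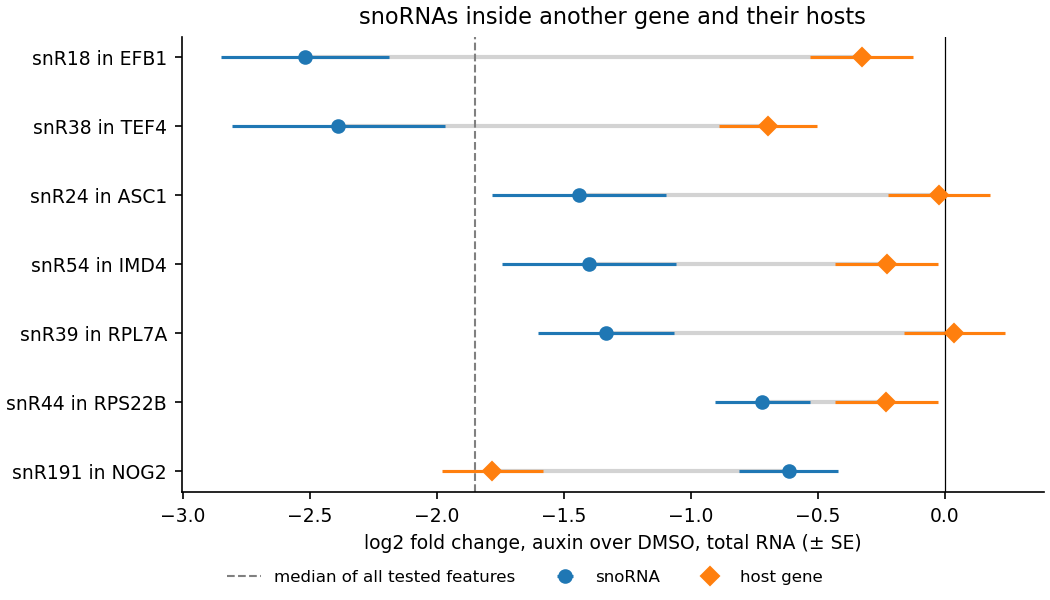
Log2 fold change in total RNA (authors' size factors, with standard error) for each of the 7 nested snoRNAs (circles) and its host gene (diamonds), with the median of all tested features, -1.85, as a dashed line. The circle lies left of the diamond for 6 pairs and right of it for snR191 in NOG2.

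Clustered snoRNAs, those with another listed snoRNA within 500 bases, changed about as much as single ones overall. The 19 clustered members, in 7 clusters, had a median of -0.88 with 16 called lower and 0 higher (1 and 10 with TMM), and the 53 single members a median of -0.76 with 44 called lower and 1 higher (7 and 31 with TMM). Without auxin replicate 2 the difference between these medians widened from -0.11 to -0.43. Among members under 150 bases the order was the opposite. The 14 clustered ones had a median of -1.27 and the 21 single ones a median of -2.12, with 3 and 12 respectively at -2 or below. For all tested features the median was -1.85 and the lower quartile -2.27, and 92.3% were called lower (32.3% with TMM). Leaving out members inside a gene, the 16 single short members had a median of -2.17.

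Members of a cluster often differed. The longest cluster, snR78 to snR72 on chromosome XIII (297278 to 298651), holds 7 box C/D snoRNAs cut from a shared transcript. In order of position its members stood at -1.53 (snR78), -1.84 (snR77), -2.33 (snR76), -1.28 (snR75) and -0.74 (snR74, not called), and snR73 and snR72 were below the count minimum. snR76, a guide for C2197, had 343 and 342 normalized counts in DMSO and 58.0 and 77.2 in auxin. snR75, a guide for G2288, had 67.7 and 59.1 in DMSO and 19.0 and 32.7 in auxin. Both auxin libraries were lower for each, and replicate 2 was the higher of the auxin pair. Standard errors along the cluster ran from 0.228 (snR76) to 0.539 (snR74), so the lower-count members are placed less precisely.

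The widest spread was between snR67 and snR53 on chromosome V (61352 to 61789), 265 bases apart. snR67, a guide for G2619 and U2724 of the large subunit, had 401 and 317 in DMSO and 66.5 and 95.7 in auxin, at -2.14 (SE 0.222). snR53, a guide for A796 of the small subunit, had 22.9 and 37.1 in DMSO and 13.3 and 31.9 in auxin, at -0.34 (SE 0.369) and not called. Only snR53 has overlapping groups of the pair. In the cluster of snR61, snR55 and snR57 on chromosome XII (794486 to 795024) the members stood at -0.77, -2.04 and -1.85, and in that of snR51, snR70 and snR41 on chromosome XVI (718700 to 719242) at -1.26, -0.42 and -0.62. With the authors' factors, the call of snR61 was lost with the replicate block, with DESeq2's test, without DMSO replicate 1 and without auxin replicate 1. That of snR41 was lost with DESeq2's test, without DMSO replicate 2 (-0.56) and without auxin replicate 1 (-0.38).

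The other 3 clusters varied little within themselves. snR128 and snR190 on chromosome X, 69 bases apart and cut from a shared transcript, stood at -1.04 and -0.88, although snR190 had 10216 and 12527 normalized counts in DMSO and 5967 and 6420 in auxin, far above snR128. NME1 and snR66 on chromosome XIV stood at -0.47 and -0.38, and snR66 was not called. The H/ACA guides snR31 and snR5 on chromosome XV, 220 bases apart, stood at -0.83 and -0.56 and were both called lower. Without DMSO replicate 2 neither was called (-0.59 and -0.40), and without auxin replicate 1 snR5 was not (-0.37).

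**Figure D4:**
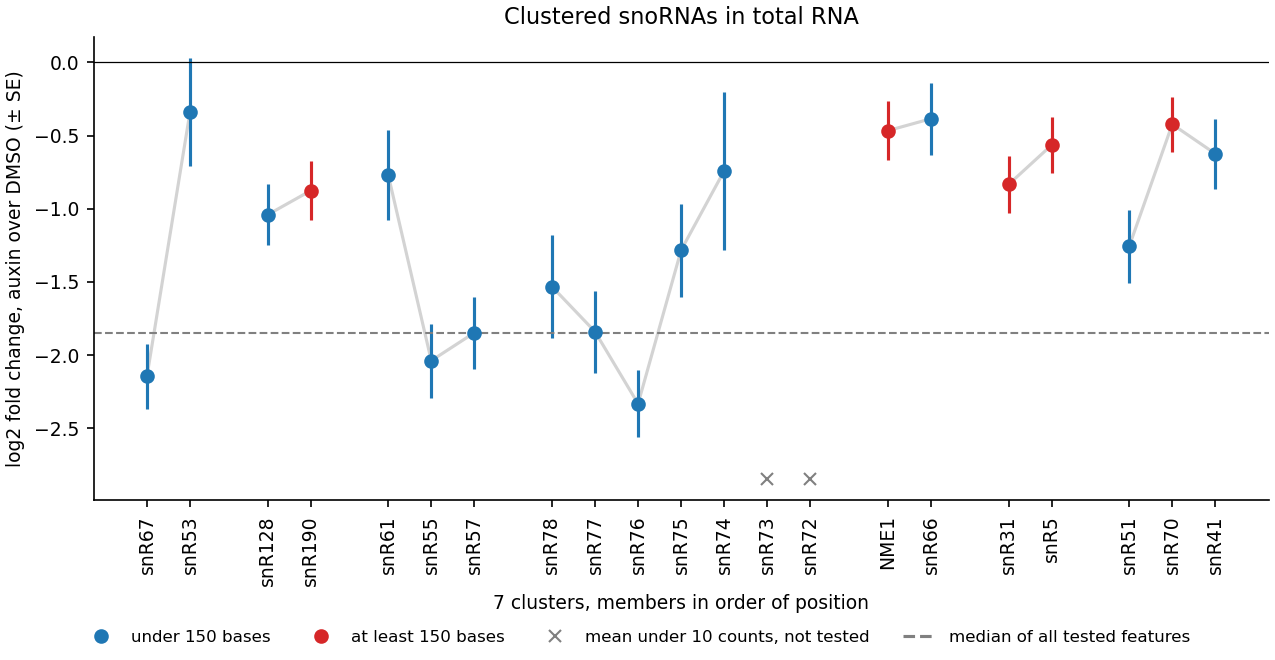
Log2 fold change in total RNA (vertical axis, authors' size factors, with standard error) for the 7 clusters, members in order of position and joined by a line, blue under 150 bases and red from 150 bases. snR67 and snR53 lie at -2.14 and -0.34, and crosses mark snR73 and snR72, which were not tested.

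Few snoRNAs were listed in newly synthesized RNA, and all of those fell. The table held 8 of the 72 members (11.1%) against 2821 of the 5589 tested features (50.5%). All 8 were called lower, as were 100% of the 2822 listed features, with 0% called higher. The list holds only features with the authors' lowest p-values and breaks off within its last line. Which members it holds thus depends on where it ends, so the calls and the share listed are a description. Members had a median of -3.23 and all listed features a median of -2.80. With TMM the calls came down to snR10, snR67 and snR77, 3 lower and 0 higher, beside 25% lower and 21.2% higher of all listed features. DESeq2's factors likewise gave 3 lower and 0 higher, beside 24.3% and 22.0%.

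snR10 again had the largest fall, from 639.9 and 773 normalized counts in DMSO to 46.6 and 47.9 in auxin, 14.9-fold (log2 fold change -3.90, SE 0.209). snR67 had 1394 and 1764 in DMSO and 126 and 97.8 in auxin, at -3.82. The auxin libraries of both were far below their DMSO libraries. snR77 and snR47 stood at -3.41 and -3.34, snR68 at -3.12, snR190 at -2.76 and snR76 at -2.60. U3 copy snR17b had 3018 and 3716 in DMSO and 392 and 489.7 in auxin, at -2.93. The second U3 copy, snR17a, was not among the listed features.

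The labelled fraction held little U3 and snR190 for their total level. The ratio of newly synthesized to total normalized counts in DMSO was 0.124 for snR17b, the lowest of 2821 features in both tables, and 0.259 for snR190, against a median of 3.90. The other 6 members had ratios of 2.90 to 6.96. The tables were normalized separately, so only the order of such ratios between features can be read.

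The fall was larger in newly synthesized than in total RNA for 5 of the 8 members, by the interaction of fraction and treatment over all 8 libraries. edgeR called 54.6% of the 2821 features lower in this sense and 0% higher. These features were listed for their low p-values in newly synthesized RNA, where all were called lower. Such a choice favours a larger fall in that fraction, so the calls are a description. The difference was -2.42 for snR17b (edgeR adjusted p = 2.05e-16, SE 0.282) and -1.88 for snR190 (edgeR adjusted p = 3.33e-10, SE 0.285). It was -1.67 for snR67, -1.60 for snR47 and -1.56 for snR77. It was not called for snR10 (-0.59), snR68 (-0.41) and snR76 (-0.27), whose total RNA had log2 fold changes of -3.31, -2.71 and -2.33. snR77 was no longer called without total RNA auxin replicate 2 (-0.85, edgeR adjusted p = 0.125). With TMM within each table, snR17b and snR190 stayed lower and snR76 was called higher at 0.77.

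**Figure D5:**
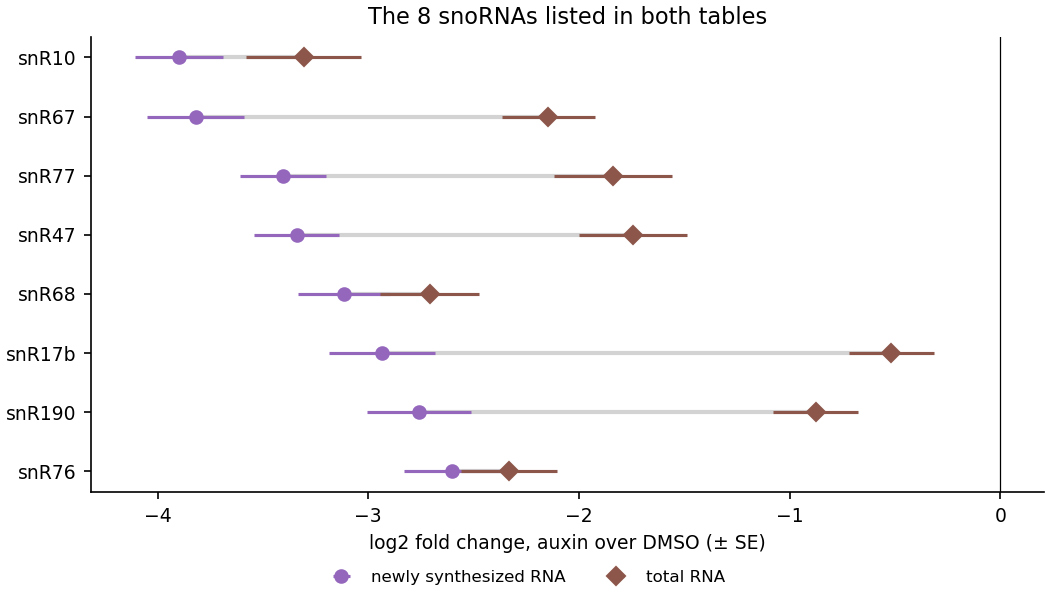
Log2 fold change (authors' size factors, with standard error) in newly synthesized RNA (circles) and total RNA (diamonds) for the 8 members listed in both tables. The gap is widest for snR17b, -2.93 against -0.52, and narrowest for snR76, -2.60 against -2.33.

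Messenger RNAs of snoRNA particle proteins and maturation factors were mostly lower, as were tested features in general. Of 31 listed genes, 30 were called lower and 1 higher in total RNA by edgeR, where 92.3% and 0.769% of all tested features were. Their median was -1.54 beside -1.85 for all tested features, although with TMM the values ran from -1.34 to 2.41. The 16 listed in newly synthesized RNA were all called lower, as was 100% of the table, with a median of -2.76 beside -2.80. Among core proteins of box C/D particles, NOP1 (the methyltransferase) stood at -1.09, NOP56 at -0.90, NOP58 at -1.15 and SNU13 at -1.22. Among those of H/ACA particles, CBF5 (the pseudouridine synthase) stood at -1.57, GAR1 at -1.39, NHP2 at -1.68 and NOP10 at -1.21. With TMM all 8 had positive values, between 0.08 and 0.87.

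Among assembly and maturation factors the values ran widely. HIT1 (YJR055W), an assembly factor of box C/D particles, had 129.8 and 135 normalized counts in DMSO and 8.55 and 21.8 in auxin, at -3.08 (edgeR adjusted p = 2.60e-22, SE 0.313). TGS1, which adds the trimethyl cap, PIH1 and RSA1, both assembly factors, and DBR1, which opens intron lariats, stood at -2.92, -2.71, -2.32 and -2.55. The assembly helicases RVB1 and RVB2 stood at -1.37 and -1.32, and MTR4, the helicase of the nuclear exosome, at -0.84. RNT1, the endonuclease that cuts snoRNA precursors, stood at -1.83 and RRP6, a nuclear exosome exonuclease, at -2.13. NRD1 (YNL251C), an RNA-binding protein of snoRNA transcription termination, was the gene called higher. It had 208 and 115 in DMSO and 224 and 305 in auxin, at 0.69 (edgeR adjusted p = 1.28e-03, SE 0.211). Its DMSO replicate 1 was close to auxin replicate 1, and the call was lost without DMSO replicate 2 (0.35, edgeR adjusted p = 0.243), without auxin replicate 2 (0.45, edgeR adjusted p = 0.0653) and with the replicate block (0.71, edgeR adjusted p = 0.0695). Its partners NAB3 and SEN1 were called lower, at -1.55 and -0.64.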

How the data were processed

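Libraries were stranded and depleted of ribosomal RNA, per the labels' protocols, and the submitters' processing notes name bcl2fastq 2.17.1.14 and build sacCer3. The aligner, the counter, any use of strand in counting and the basis of the size factors are not given in the sources used here. Raw counts per feature were deposited by the authors, with a normalized signal (the raw count over 1 size factor per library, which the values show) and the same per kb of listed length. Their deposited log2 fold changes and p-values were not used for any value above.

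edgeR 4.0.16 in R 4.3.3 fitted the counts of each fraction, and of both for their interaction, by its quasi-likelihood test with the authors' size factors and Benjamini-Hochberg adjustment, over features averaging 10 counts or more. DESeq2 1.42.0 gave alternatives. Medians of lists carry no test. On simulated counts the total RNA fit recovered 85% of 100 genes changed by 1 on the log2 scale and 100% of 100 changed by 2. Those genes were drawn from all tested features and moved up as often as down, with the rest unchanged, unlike these data. Recovery at the counts of the low-count members was not examined. Standard errors are the log2 fold change over the square root of F.

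A member inside another feature has both ends within it. Clusters join snoRNAs with gaps of at most 500 bases, without regard to strand, which had been planned as a criterion, because the tables give none. Box class and targets come from the deposited descriptions. The length split at 150 bases was set after the data were seen. Members and lists were chosen with earlier results of these data known. Named members are all nested, clustered and newly synthesized ones, the U3 copies, the 10 largest and 10 smallest falls, and the 5 highest and lowest levels per kb. snR4, snR13, snR36, snR45, snR80, snR85, snR161 and most genes of the particle list were named after their values were seen. Precision is limited by 2 libraries per group: the median standard error was 0.343 for members with fewer than 100 counts and 0.198 for the others. No snoRNA sequence was in the files used here, so none is shown.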

Additional observations from a re-analysis of the deposited data

Results flagged for a closer look

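The difference between fractions was tested for the 8 snoRNAs listed in both tables, and 5 had an auxin effect that differed between newly synthesized and total RNA by edgeR's interaction test. The effect in newly synthesized RNA minus that in total RNA was -2.42 for snR17b, -1.88 for snR190, -1.67 for snR67, -1.60 for snR47 and -1.56 for snR77 on the log2 scale, where 54.6% of the 2821 features in both tables were called in the same direction. All of these features had been listed for low p-values in newly synthesized RNA, so the calls are a description. With TMM within each fraction, only snR17b and snR190 stayed lower and snR76 was called higher, beside 685 features lower and 1239 higher. In DMSO snR17b and snR190 were also the 2 of the 8 with the lowest ratio of labelled to total counts, at 0.124 and 0.259. Only groups of 2 libraries were available, so no library could be examined as standing apart within its group.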

How the results depend on the processing

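The scaling set the direction of the levels. With TMM, 1805 features were called lower and 1652 higher in total RNA, with a median of -0.094, and 8 snoRNAs were lower and 41 higher, with a median of 0.94. With DESeq2's size factors the counts were 1544 and 1811 with a median of -0.020, and 8 and 43 with a median of 1.02. In newly synthesized RNA, TMM gave 705 features lower and 597 higher (median -0.0095) with 3 snoRNAs lower (median -0.43), and DESeq2's factors gave 687 and 621 (median -0.0020) with 3 lower (median -0.42). For the interaction, TMM gave 685 features lower and 1239 higher, and 2 snoRNAs lower and 1 higher. These shifts follow from how TMM and DESeq2 centre the libraries on most features.

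Signs were followed only for the named members, the host genes and part of the particle protein list, so other genes also turned positive and are not given here. Of those followed and called with the authors' factors or the alternative, the genes whose log2 fold change turned positive in total RNA with TMM were NME1 1.30, snR128 0.72, snR17a 1.13, snR17b 1.24, snR189 1.43, snR190 0.90, snR191 1.15, snR24 0.32, snR30 1.62, snR31 0.94, snR37 1.61, snR39 0.42, snR41 1.12, snR42 1.42, snR44 1.04, snR47 0.021, snR49 1.69, snR5 1.20, snR51 0.49, snR53 1.40, snR54 0.35, snR61 0.96, snR66 1.37, snR70 1.34, snR75 0.45, snR78 0.20, snR84 1.68, snR86 1.64 and snR9 1.41, and among host and particle protein genes EFB1 1.44, TEF4 1.04, ASC1 1.74, IMD4 1.54, RPS22B 1.54, RPL7B 0.37, NHP2 0.084, CBF5 0.19, GAR1 0.37, NOP10 0.55, NOP58 0.61, NOP1 0.66, NOP56 0.87 and SEN1 1.12. With DESeq2's size factors they were NME1 1.37, snR128 0.79, snR17a 1.20, snR17b 1.32, snR189 1.504, snR190 0.97, snR191 1.22, snR24 0.39, snR30 1.69, snR31 1.01, snR37 1.69, snR39 0.49, snR41 1.20, snR42 1.499, snR44 1.12, snR47 0.094, snR49 1.76, snR5 1.27, snR51 0.57, snR53 1.47, snR54 0.42, snR61 1.04, snR65 0.069, snR66 1.44, snR70 1.42, snR75 0.53, snR78 0.28, snR84 1.75, snR86 1.71 and snR9 1.48, and among host and particle protein genes EFB1 1.51, TEF4 1.12, ASC1 1.81, IMD4 1.61, RPS22B 1.61, NOG2 0.058, RPL7B 0.45, RNT1 0.00997, NHP2 0.16, CBF5 0.26, GAR1 0.44, NOP10 0.62, NOP58 0.68, NOP1 0.74, NOP56 0.95 and SEN1 1.20. In newly synthesized RNA snR190 turned to 0.049 and snR76 to 0.19 with TMM, and to 0.057 and 0.20 with DESeq2's factors.

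With a mean of at least 100 counts, 37 snoRNAs were lower (median -0.62), 22 features were higher, and the difference was -0.043 between nested and other snoRNAs and -0.39 between box C/D and H/ACA, with fewer snoRNAs tested. Within box C/D the differences turned to 0.14 for nested and 0.77 for clustered snoRNAs, and under 150 bases to 0.35 and 0.85. From 150 bases up, the box C/D median was 0.12 above the H/ACA one. The length difference kept its sign under every alternative run, from -1.38 to -1.03. Leaving out each library in turn gave 42 to 61 snoRNAs called lower in total RNA (fewest without DMSO replicate 2), medians of -1.13 to -0.68, and differences of -0.71 to -0.44 for nested and -0.43 to -0.032 for clustered snoRNAs. DESeq2's test called 54 lower and 1 higher.

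Replicate numbers mark no stated pairing. Same-numbered DMSO and auxin libraries had correlated deviations of -0.117 in total and 0.052 in newly synthesized RNA, and same-numbered total and newly synthesized libraries 0.163 in DMSO and 0.097 in auxin. With the replicate block 59 snoRNAs were lower and 1 higher in total RNA, 8 lower in newly synthesized RNA, and 5 lower for the interaction (where lower features went from 1539 to 2054 of 2821), and 5226 and 51 features were lower and higher in total RNA. The crossed block, added after the data were seen, gave 48 and 1 snoRNAs and 4982 and 37 features.

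Nesting on the same strand only could not be run, because the tables give no strand. Subsets by class and by length were also added after the data were seen. Depth limited the low-count snoRNAs most, as 7 had fewer than 10 raw counts on average in auxin.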
